A study of Mus musculus with 12 samples.

Results

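The comparison described here sets ISOS-1 cells given the BET bromodomain inhibitor JQ1 against ISOS-1 cells given its vehicle, DMSO. ISOS-1 is a mouse angiosarcoma cell line, labelled as endothelial and of wild-type genotype, and every library of the series came from it; all groups were grown in DMEM with serum. The comparison used 6 of the 12 libraries: 3 from cells treated with 1 µM JQ1 for 36 h and 3 from cells given DMSO, for which the labels used here state no duration. The remaining 6 libraries came from cells given the histone deacetylase inhibitors VPA (2 mM, 36 h, 3 libraries) or SAHA (1 µM, 24 h, 3 libraries). All genes with at least 1 TPM (a transcript abundance scaled to a fixed sum per library) in at least 3 of the 12 libraries were taken, which gave 12836 of 55359 gene identifiers. Because the DMSO time is not stated, drug and exposure time cannot be told apart in what follows, and all results come from a single cell line in culture. The labels speak of triplicates but not of separate cultures, so p-values measure the spread between these libraries, which may be technical.

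JQ1 occupies the acetyl-lysine pockets of the BET proteins and releases them from acetylated chromatin. BET proteins help to recruit P-TEFb, the kinase of CDK9 and cyclin T that lets RNA polymerase II leave its pause near promoters, and HEXIM proteins hold P-TEFb inactive in the 7SK particle. In many human blood cancers BET inhibition lowers MYC, whereas HEXIM1 is widely used as a transcript that rises with exposure to the drug.

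RNA was measured by sequencing tags at transcript 3′ ends. TPM divides by transcript length although such tags do not scale with it, and TPM keeps no record of depth, so the counting precision of single values is unknown. Below, levels are in TPM, given per library or as mean ± SD (n = 3), a ratio is the quotient of 2 group means in TPM, and a log2 change is a difference of means of log2(TPM + 1), which understates changes of low genes. A gene is said to rise or fall where limma, fitted across all genes, gave a Benjamini-Hochberg adjusted p under 0.05. In bulk RNA, fewer cells of a kind and less RNA per cell cannot be told apart.

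Of 12836 genes, 4347 passed the threshold (33.9%): 1657 were higher with JQ1 (12.9%) and 2690 were lower (21.0%). A change of at least 2-fold was seen for 707 of the higher genes (5.51% of all tested) and 1235 of the lower ones (9.62%). The 3 JQ1 and 3 DMSO libraries did not overlap for 5869 genes (45.7%). The median log2 change over all tested genes was −0.07. Scaling bears on the balance: quantile normalization gave 2068 higher and 2196 lower genes, and median-of-ratios scaling 2070 and 2290, so that 48.5% and 47.5% of the calls were higher, against 38.1% with TPM as deposited. Across genes, which are not independent replicates, Pearson's r was 0.889 to 0.897 between JQ1 and DMSO libraries, 0.941 to 0.946 among JQ1 libraries and 0.944 to 0.947 among DMSO libraries.

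**Figure D1:**
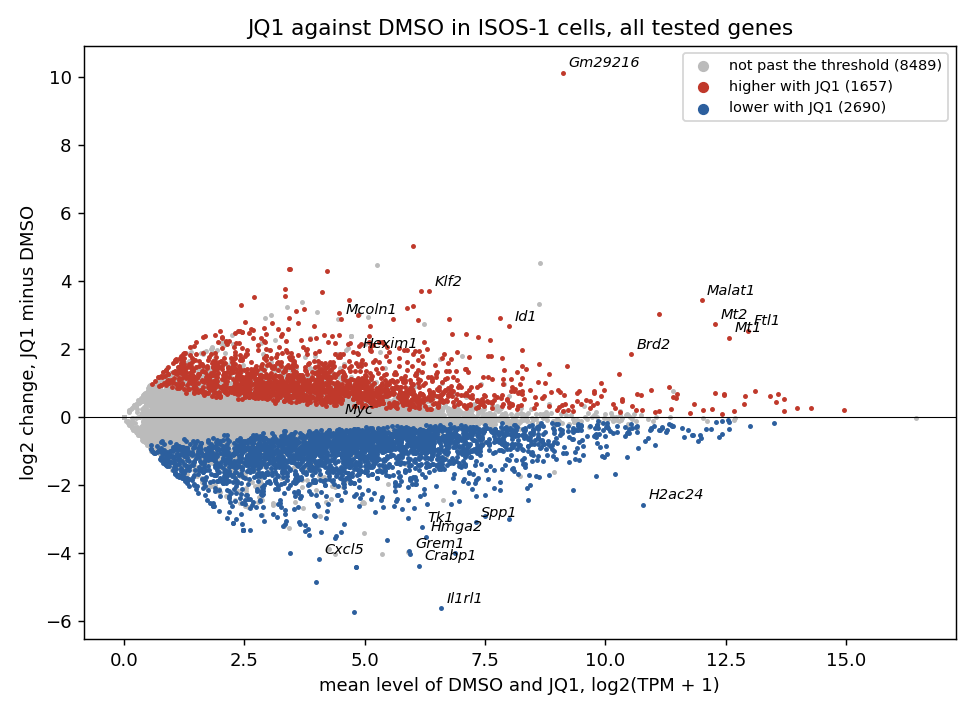
Log2 change with JQ1 (vertical axis) against the mean level of the DMSO and JQ1 groups as log2(TPM + 1) (horizontal axis), 1 point per tested gene, n = 3 libraries a group. Red points (1657) are higher and blue points (2690) lower at an adjusted p under 0.05, grey points did not pass; Malat1, Mt1, Mt2 and Ftl1 stand among the abundant genes that were higher, Il1rl1, Crabp1 and Grem1 at the lower edge, and Myc near 0. The point at 10.11 is the pseudogene Gm29216.

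Libraries differed little within a group. The number of genes listed above 0 TPM was 14045 ± 324 (SD, n = 3) in DMSO and 14508 ± 327 in JQ1 (two-sided exact permutation p = 0.2). Mitochondrially encoded genes held 11.1 ± 0.0889% of TPM in DMSO and 14.6 ± 0.526% in JQ1, without overlap (exact permutation p = 0.1, the smallest that 3 against 3 libraries allow). Such a shift lowers the TPM of all other genes, and so do the large rises of Ftl1, Mt1, Mt2 and Malat1 given below. Few markers of the labelled endothelial type were measured: of 21 blood endothelial markers 4 passed the filter and 8, among them Cdh5 (VE-cadherin), Tie1 and Vwf, were listed at 0 in all 6 libraries, and of 6 lymphatic markers only podoplanin was listed above 0. The blood endothelial markers summed to 107 to 125 TPM in DMSO and 64.4 to 71.1 TPM in JQ1, most of it Cd34. Of the 4 tested, Flt1, Mcam and Egfl7 did not pass (median of the 4, −0.16), and Cd34, a surface protein of endothelial and progenitor cells, fell from 103 ± 8.41 TPM to 52.5 ± 0.552 TPM (log2 change of −0.96, with adjusted p = 2.41e-05). Podoplanin (Pdpn) fell from 73.3 ± 4.24 TPM to 46.9 ± 1.89 TPM (log2 change of −0.63, with adjusted p = 7.52e-05). Summed markers of other cells were 333 to 337 TPM in DMSO and 282 to 307 TPM in JQ1 for fibroblasts (Lum and Fap at 0). They were 50.02 to 61.6 and 19.97 to 27.6 TPM for pericytes and smooth muscle, nearly all of it the actin gene Acta2 (Rgs5 and Kcnj8 at 0). They were 0.52 to 3.60 and 1.44 to 4.03 TPM for leukocytes (Adgre1, Itgam, Lyz2 and Tyrobp at 0). The epithelial sum went from 11.2 to 12.9 TPM in DMSO to 30.4 to 40.3 TPM in JQ1, nearly all of it the keratin gene Krt19, with Epcam and Krt5 at 0.

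Of 15 tested genes for BET proteins, P-TEFb and its regulators, 3 rose and 1 fell, with a median log2 change of 0.35. This made 26.7% called, below the 33.9% of all genes, and the 4 other scalings gave 3 to 5 higher and 1 lower. Brd2 had 652, 629.5 and 655 TPM in the DMSO libraries and 2293, 2492 and 2180.0 TPM in the JQ1 libraries. The groups were far apart, with a ratio of 3.6 (log2 change 1.84, SE 0.05, adjusted p = 9.43e-10). Hexim1, the inhibitory partner of P-TEFb, had 12.2, 12.9 and 9.18 TPM in the DMSO libraries and 43, 43.1 and 46.7 TPM in the JQ1 libraries, again without overlap, and rose 3.87-fold (log2 change 1.88, SE 0.16, adjusted p = 6.12e-06). Larp7, which stabilises the 7SK RNA, fell from 224 ± 10.2 TPM to 112 ± 3.44 TPM, a DMSO to JQ1 ratio of 2.01 (adjusted p = 4.88e-07). The cyclin T gene Ccnt2 rose from 5.97 ± 0.424 TPM to 11 ± 2.85 TPM (log2 change of 0.75, with adjusted p = 0.0188), a call that ended without DMSO replicate 3, JQ1 replicate 1 or JQ1 replicate 3 (highest adjusted p = 0.0766). Brd3 stood at 33.9 ± 2.62 TPM in DMSO and 32.1 ± 7.48 TPM in JQ1, with a log2 change of −0.10 that changed sign with 2 of the scalings (adjusted p = 0.641).

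Of 6 listed genes reported to rise with BET inhibitors in human cells 5 were tested, and of 7 reported to fall 4 were. Among these 9 tested genes, 5 passed in the direction reported there (log2 medians 1.29 and −1.07 for those reported to rise and to fall). Of those reported to rise, Hexim1, the linker histone gene H1f0 (57.3 ± 0.685 TPM to 148 ± 4.75 TPM) and the histone gene H2bc21 (0.313 ± 0.085 TPM to 2.22 ± 0.462 TPM) rose, while Zcchc24 and Zmynd8 did not pass. H2bc21 was under 1 TPM in all DMSO and VPA libraries, and of DMSO, VPA and JQ1 only JQ1 reached the filter level. Its rise was thus favoured by the filter and is no separate support, and its own change is the median of 1.29. Of those reported to fall, Fosl1, an AP-1 subunit, had 35.7, 31.2 and 26.7 TPM in the DMSO libraries and 3.37, 1.74 and 4.68 TPM in the JQ1 libraries. The groups were well separated, with a ratio of DMSO to JQ1 of 9.56 (log2 change −2.97, adjusted p = 2.74e-06). Cdk6, a kinase of G1 phase, fell from 16.8 ± 0.388 TPM to 4.67 ± 0.767 TPM (log2 change of −1.66, with adjusted p = 5.82e-06). The transcripts of Bcl2 (1.72 ± 0.584 and 0.977 ± 0.56 TPM, adjusted p = 0.233) and Myc did not pass. Myc had 22.2, 22.2 and 20.1 TPM in the DMSO libraries and 20.7, 18.9 and 22.4 TPM in the JQ1 libraries. The groups overlapped (log2 change −0.06, SE 0.13, adjusted p = 0.779), and the sign of this small difference turned under several settings. Its dimerisation partner Max stood at 33.7 ± 4.29 and 30.7 ± 1.88 TPM (adjusted p = 0.479). In the same network Mxd1 (0.49 ± 0.347 TPM to 3.55 ± 1.59 TPM), Mxd4 (37 ± 4.29 TPM to 98.1 ± 13.6 TPM) and Mga (15.3 ± 4.69 TPM to 27.5 ± 2.37 TPM), whose proteins compete with MYC for MAX, rose. Mxd1 was also under 1 TPM in all DMSO and VPA libraries, so the filter favoured its rise too. Without DMSO replicate 3, Mga had an adjusted p of 0.0508. Mxd3 fell (27.1 ± 6.15 TPM to 13.4 ± 3.59 TPM).

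Although Myc itself did not pass, genes of MYC-linked biosynthesis were lower as a group. Of 34 tested members, 31 fell and none rose (91.2% called, against 33.9% of all genes), with a median log2 change of −0.93. They span ribosome assembly, nucleotide and polyamine synthesis, and mitochondrial folate metabolism and chaperones. The largest fall was that of Dkc1, the pseudouridine synthase of box H/ACA particles and telomerase, with 558, 568 and 569 TPM in the DMSO libraries and 111, 98.7 and 104 TPM in the JQ1 libraries and a log2 change of −2.42 (SE 0.08, adjusted p = 2.56e-09). Nucleolin (Ncl) fell from 982 ± 17.6 TPM to 410.5 ± 30.5 TPM (log2 change of −1.26, with adjusted p = 2.72e-08). Nucleophosmin (Npm1) fell from 2667 ± 76.4 TPM to 1507 ± 59.9 TPM (log2 change of −0.82, with adjusted p = 2.31e-07). Pa2g4, a ribosome assembly factor, fell from 579 ± 35.8 TPM to 174 ± 28.5 TPM (log2 change of −1.74, with adjusted p = 3.53e-07). The spermidine synthase gene Srm fell from 113 ± 7.05 TPM to 41.5 ± 1.34 TPM (log2 change of −1.42, with adjusted p = 1.61e-07). The members that did not pass were Polr1a (log2 change −0.16), Cdk4 (−0.36) and Bop1 (−0.53). Between 29 and 31 members fell, and none rose, under each of the 4 other scalings.

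MYC and other helix-loop-helix factors bind the E-box CACGTG, a palindrome that reads alike on both strands. It was searched in RefSeq promoters of the GRCm38.p6 build, from 250 bases before to 50 after each start, for 8857 of the tested genes (11291 promoters). It was present in 10.1% of all promoters, in 10.9% of those of lower genes, in 13.6% of those of higher genes and in 9 of the 37 promoters of the MYC-linked genes (24.3%). The 2 called members with the largest change whose first listed promoter holds the motif before the start are shown, over the 250 bases before it. They are Hspd1, a mitochondrial chaperone (chr1:55088244-55088493, minus strand), and Ldha, lactate dehydrogenase A (chr7:46845554-46845803, plus strand). Capitals mark CACGTG. These and the promoters further below were picked after the values had been seen.
Hspd1: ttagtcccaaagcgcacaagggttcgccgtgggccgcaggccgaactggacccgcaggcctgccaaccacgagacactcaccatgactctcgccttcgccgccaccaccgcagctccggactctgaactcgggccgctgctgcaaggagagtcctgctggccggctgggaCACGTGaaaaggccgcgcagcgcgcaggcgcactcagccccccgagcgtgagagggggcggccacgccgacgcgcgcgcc
Ldha: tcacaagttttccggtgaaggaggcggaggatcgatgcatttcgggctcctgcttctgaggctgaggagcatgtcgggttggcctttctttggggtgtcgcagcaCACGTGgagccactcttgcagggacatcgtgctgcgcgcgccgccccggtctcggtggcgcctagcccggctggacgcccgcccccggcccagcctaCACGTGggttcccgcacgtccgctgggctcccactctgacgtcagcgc
Hspd1 has the motif 80 bases before the start and Ldha has it 145 and 48 bases before. Hspd1 fell from 431 ± 9.51 TPM to 179 ± 11.4 TPM (log2 change of −1.26, with adjusted p = 4.53e-08). Ldha fell from 165 ± 10.01 TPM to 73.4 ± 10.8 TPM (log2 change of −1.16, with adjusted p = 8.68e-06). A match describes the letters in the window and does not show that a factor binds there.

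Cell-cycle genes gave the most uniform response of the lists with at least 8 tested members. Of 29 tested genes of G2/M and mitosis, all 29 fell, with a median log2 change of −1.61. Of 38 tested S-phase genes 36 fell and none rose, with a median of −1.48, where 21.0% of all genes were lower. All 29 also fell under each of the 4 other scalings, and 35 or 36 of the S-phase genes did. Ube2c, the ubiquitin-conjugating enzyme that works with the anaphase-promoting complex, had 271, 247 and 269.9 TPM in the DMSO libraries and 52, 55.3 and 47.6 TPM in the JQ1 libraries, and its groups did not overlap (log2 change −2.33, SE 0.08, adjusted p = 3.17e-09). Plk1, a mitotic kinase, fell from 67.5 ± 2.19 TPM to 12.4 ± 0.648 TPM (log2 change of −2.35, with adjusted p = 1.18e-07). Cdca8, the chromosomal passenger protein borealin, fell from 112 ± 13.1 TPM to 17.4 ± 6.02 TPM (log2 change of −2.66, with adjusted p = 1.72e-06). Cdk1, the kinase that drives entry into mitosis, fell from 249.2 ± 9.22 TPM to 63.9 ± 4.3 TPM (log2 change of −1.95, with adjusted p = 4.33e-09). The proliferation marker Mki67 had 20.9, 18.8 and 20.5 TPM in the DMSO libraries and 7.28, 7.08 and 7.18 TPM in the JQ1 libraries (log2 change −1.36, adjusted p = 4.62e-06).

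Within S phase the members ranged widely. Thymidine kinase (Tk1) had 133, 133 and 127 TPM in the DMSO libraries and 14.1, 11.6 and 13.4 TPM in the JQ1 libraries, a 10.1-fold fall (log2 change −3.24, SE 0.09, adjusted p = 1.21e-09) and the largest on that list. Ung, a uracil-DNA glycosylase, fell from 31.5 ± 5.74 TPM to 4.01 ± 1.91 TPM (log2 change of −2.77, with adjusted p = 2.61e-05). The replicative helicase subunit Mcm5 fell from 48.9 ± 3.56 TPM to 8.73 ± 0.835 TPM (log2 change of −2.36, with adjusted p = 3.59e-08). The sliding clamp Pcna fell less, from 213 ± 12.4 TPM to 115 ± 14.6 TPM (log2 change −0.89, adjusted p = 2.47e-05). The replication factor Gins4 (25.6 ± 6.47 and 21.2 ± 2.23 TPM, adjusted p = 0.391) and Slbp, the histone stem-loop binding protein (26.9 ± 3.86 and 25.3 ± 0.886 TPM, adjusted p = 0.789), did not pass.

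Of 11 tested G1 cyclins, kinases and RB family genes, 6 fell and 1 rose (63.6% called, against 33.9% of all genes). Their median log2 change was −0.89, and the 4 other scalings gave 6 lower and 2 or 3 higher. The D cyclins Ccnd1 (138 ± 6.2 TPM to 73.8 ± 6.29 TPM) and Ccnd2 (169.9 ± 13 TPM to 84.7 ± 5.5 TPM) fell, while Ccnd3 stood at 38.7 ± 6.4 and 49.7 ± 6.99 TPM (adjusted p = 0.094). The transcription factor genes E2f4 (32.1 ± 9.29 TPM to 9.11 ± 0.771 TPM) and E2f3 (22.9 ± 6.11 TPM to 8.92 ± 3.02 TPM) and the pocket protein gene Rbl1 (8.8 ± 0.912 TPM to 3.48 ± 1.15 TPM) fell, and E2f5 rose (4.37 ± 1.97 TPM to 8.33 ± 1.54 TPM). The call of E2f3 ended without DMSO replicate 1 or 2 or JQ1 replicate 3 (highest adjusted p = 0.0741) and that of Rbl1 without any of these or JQ1 replicate 2 (0.0775). Of 6 tested CDK inhibitors (66.7% called), Cdkn2b (20.4 ± 2.51 TPM to 42 ± 4.01 TPM) and Cdkn1b (22.9 ± 3.74 TPM to 42.3 ± 3.33 TPM) rose and Cdkn2c (14.3 ± 2.21 TPM to 6.96 ± 0.93 TPM) fell. Cdkn1a, which encodes p21, had 26.4, 22.1 and 22 TPM in the DMSO libraries and 16.7, 13.6 and 20.1 TPM in the JQ1 libraries. It was lower without overlap (log2 change −0.47, adjusted p = 0.0293), but the call ended without DMSO replicate 1, JQ1 replicate 1 or JQ1 replicate 2 (highest adjusted p = 0.106) and under 4 other scalings. Among 18 p53 targets (44.4% called), 6 rose and 2, Cdkn1a and the nuclease gene Aen (29.5 ± 0.939 TPM to 9.37 ± 1.46 TPM), fell. Gadd45a (10.5 ± 2.73 TPM to 46.9 ± 4.68 TPM) and Plk2 (8.76 ± 1.3 TPM to 24 ± 2.67 TPM) rose, and Mdm2 stood at 14.9 ± 2.58 and 12.7 ± 3.3 TPM (adjusted p = 0.379).

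**Figure D2:**
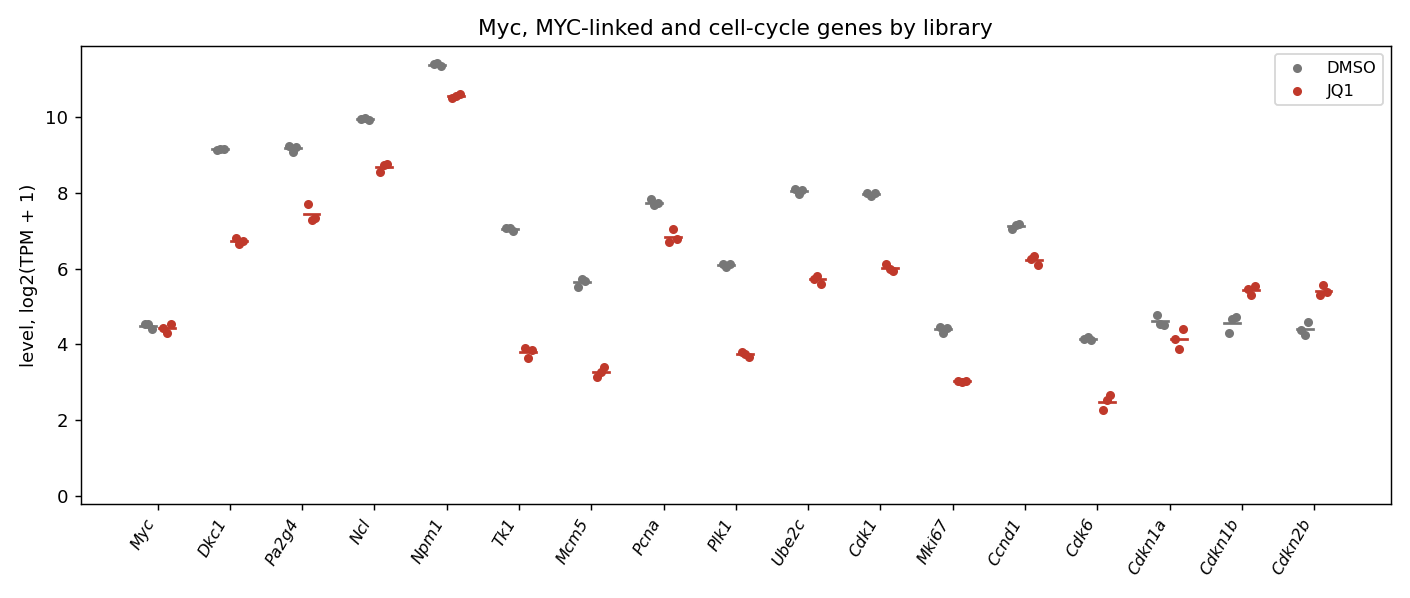
Level as log2(TPM + 1) of Myc, MYC-linked genes, cell-cycle genes and CDK inhibitors in each DMSO (grey) and JQ1 (red) library, with the mean of 3 libraries as a bar. The groups of Myc overlap, those of Dkc1 through Mki67 lie apart with JQ1 below, and Cdkn1b and Cdkn2b lie above the vehicle.

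The promoters of the listed mitotic genes share letters. All 29 tested members fell, so the shares describe the chosen list and cannot tell how letters relate to the response within it. The element TTTGAA, known in human and mouse mitotic genes as the CHR, was found on either strand in 22 of the 27 RefSeq promoters of the G2/M list (81.5%), against 12.2% of all 11291 promoters and 15.2% of those of all lower genes. CCAAT, the letters of the CCAAT box, was found in 85.2% of the G2/M promoters, 59.5% of the S-phase promoters (22 of 37) and 38.6% of all. Both motifs were added after the data had been seen, and TTTGAA was in 13.5% of the S-phase promoters. The 250 bases before the start of the 3 G2/M genes with the largest fall whose first listed promoter holds TTTGAA there are shown, for Ube2c (chr2:164769679-164769928, plus strand), Cdk1 (chr10:69352913-69353162, minus strand) and the guanine nucleotide exchange factor gene Ect2 (chr3:27153879-27154128, minus strand). Capitals mark TTTGAA and CCAAT and their reverse complements TTCAAA and ATTGG, which run together where 2 motifs touch.
Ube2c: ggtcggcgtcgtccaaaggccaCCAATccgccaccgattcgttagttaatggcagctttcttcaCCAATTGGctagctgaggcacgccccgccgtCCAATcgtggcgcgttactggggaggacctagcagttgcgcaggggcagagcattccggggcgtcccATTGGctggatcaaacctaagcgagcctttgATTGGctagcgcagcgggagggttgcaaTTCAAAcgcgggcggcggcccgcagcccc
Cdk1: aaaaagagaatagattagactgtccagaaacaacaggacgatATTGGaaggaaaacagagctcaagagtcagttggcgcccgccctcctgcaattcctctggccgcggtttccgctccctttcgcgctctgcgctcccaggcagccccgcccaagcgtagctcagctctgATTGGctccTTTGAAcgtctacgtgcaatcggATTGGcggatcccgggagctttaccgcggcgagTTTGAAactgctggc
Ect2: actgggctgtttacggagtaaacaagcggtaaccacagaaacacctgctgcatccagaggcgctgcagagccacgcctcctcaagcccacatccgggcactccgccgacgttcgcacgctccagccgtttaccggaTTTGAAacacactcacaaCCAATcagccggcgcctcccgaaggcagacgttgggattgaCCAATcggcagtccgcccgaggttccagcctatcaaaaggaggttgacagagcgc
The element lies 29 bases before the start in Ube2c, 71 and 15 bases before in Cdk1, and 114 bases before in Ect2. The Ube2c window holds 6 CCAAT matches on both strands together, that of Cdk1 holds 3 and that of Ect2 holds 2. Ect2, which acts in cytokinesis, fell from 23.4 ± 0.822 TPM to 5.94 ± 2.11 TPM (log2 change of −1.86, with adjusted p = 0.000208). As with the E-box, these are letter matches and no binding was measured.

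Lysosomal and autophagy genes moved the other way. Of 29 tested members, 23 rose and none fell (79.3% called, against 33.9% of all genes). Their median log2 change was 1.12, and the 4 other scalings gave 23 to 25 higher and none lower. Mcoln1, the lysosomal calcium channel TRPML1, had 6.52, 1.93 and 5.6 TPM in the DMSO libraries and 43.5, 44.1 and 28.1 TPM in the JQ1 libraries (log2 change 2.88, SE 0.63, adjusted p = 0.00455). The spread was wide in both groups, and the lack of overlap was part of the rule that picked Mcoln1. The sialidase gene Neu1 rose from 4.63 ± 0.533 TPM to 29.2 ± 3.74 TPM (log2 change of 2.42, with adjusted p = 9.25e-06). Grn, which encodes progranulin, rose from 65.2 ± 7.14 TPM to 319 ± 8.87 TPM (log2 change of 2.28, with adjusted p = 3.59e-08). Cathepsin D (Ctsd) had 70.9, 75.4 and 75.7 TPM in the DMSO libraries and 191, 191 and 213 TPM in the JQ1 libraries, a 2.68-fold rise (log2 change 1.41, adjusted p = 3e-07). The rise covered the membrane protein Lamp1 (267 ± 8.44 TPM to 646 ± 36 TPM), the proton pump subunit Atp6v0d1 (12.5 ± 1.29 TPM to 57.4 ± 3.54 TPM), and on the autophagy side the receptor Sqstm1 (72.8 ± 3.91 TPM to 195 ± 6.74 TPM), Map1lc3b (132 ± 1.88 TPM to 345 ± 35 TPM) and the initiating kinase Ulk1 (2.98 ± 0.737 TPM to 13.2 ± 0.835 TPM). The genes of 2 transcription factors that drive this programme did not pass: Tfeb stood at 0.827 ± 0.815 and 0.65 ± 0.357 TPM and Tfe3 at 5.56 ± 0.411 and 5.92 ± 1.13 TPM (adjusted p = 0.952 and 0.875). Others that did not pass were Ctsz, Hexa, Gabarapl1 and Atp6v1h.

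TFEB and TFE3 also bind sites built around the E-box. CACGTG was found in 6 of the 27 RefSeq promoters of this list (22.2%, against 10.1% of all). The 250 bases before the start are shown for Mcoln1 (chr8:3500269-3500518, plus strand) and Ctsd (chr7:142387828-142388077, minus strand), the 2 called members with the largest change whose first listed promoter holds it there, with CACGTG in capitals.
Mcoln1: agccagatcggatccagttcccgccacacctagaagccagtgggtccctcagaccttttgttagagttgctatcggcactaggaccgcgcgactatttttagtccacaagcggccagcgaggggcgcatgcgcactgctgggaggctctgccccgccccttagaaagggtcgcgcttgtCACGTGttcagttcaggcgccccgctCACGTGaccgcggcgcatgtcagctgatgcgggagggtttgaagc
Ctsd: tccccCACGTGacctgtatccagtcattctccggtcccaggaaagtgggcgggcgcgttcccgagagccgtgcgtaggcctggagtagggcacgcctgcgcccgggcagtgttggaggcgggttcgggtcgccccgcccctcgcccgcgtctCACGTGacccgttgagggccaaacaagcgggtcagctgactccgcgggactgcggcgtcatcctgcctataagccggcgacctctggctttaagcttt
Mcoln1 holds the motif 71 and 45 bases before the start and Ctsd 245 and 98 bases before. The promoters shown of genes that rose (Mcoln1, Ctsd) and of genes that fell (Hspd1, Ldha) were all picked for holding these letters. They do not show how the motif relates to direction.

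Of 8 tested genes on the list of metallothioneins, Txnip and related genes 3 rose and 2 fell, with a median log2 change of 0.02. This made 62.5% called, against 33.9% of all genes. The thioredoxin gene Txn1 fell from 597 ± 31.8 TPM to 465 ± 28.1 TPM (log2 change of −0.36, with adjusted p = 0.000848). Txnrd1, a thioredoxin reductase, fell from 155 ± 7.39 TPM to 123 ± 6.24 TPM (log2 change of −0.34, with adjusted p = 0.00312). Quantile normalization left 3 members of that list higher and none lower. The metallothionein gene Mt1 had 2031, 1999 and 1996 TPM in the DMSO libraries and 9933, 10387 and 10144 TPM in the JQ1 libraries, and Mt2 had 1351, 1236 and 1337 TPM in the DMSO libraries and 8318, 8657 and 9005 TPM in the JQ1 libraries. Both sets lay far apart, with ratios of 5.06 and 6.62 (log2 changes 2.34 and 2.73, adjusted p = 1.72e-11 and 1.06e-11). Ferritin light chain (Ftl1) had 2359, 2361 and 2287 TPM in the DMSO libraries and 13240.1, 13823 and 13534 TPM in the JQ1 libraries, a 5.79-fold rise (log2 change 2.53, adjusted p = 1.84e-11) that is uncertain in size because near-identical copies of the gene can share reads, and ferritin heavy chain (Fth1) rose from 1794 ± 74.6 TPM to 3287 ± 61.2 TPM (log2 change of 0.87, with adjusted p = 7.2e-08). The haem oxygenase gene Hmox1 rose from 9.07 ± 1.8 TPM to 35.6 ± 5.81 TPM (log2 change of 1.87, with adjusted p = 1.41e-05). Other genes on the NRF2 and glutathione list went both ways, with 9 higher and 4 lower of 23 (56.5% called). Glutathione reductase (Gsr) fell from 36.7 ± 5.91 TPM to 14.1 ± 2.4 TPM (log2 change of −1.32, with adjusted p = 9.76e-05). The glutamate-cysteine ligase subunits Gclc (13.8 ± 2.31 TPM to 24.2 ± 0.794 TPM) and Gclm (133 ± 4.39 TPM to 86.2 ± 13.5 TPM) moved in opposite directions. Nqo1 stood at 5.51 ± 0.147 and 3.78 ± 0.747 TPM (adjusted p = 0.216).

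Txnip, the inhibitor of thioredoxin that responds to glucose, had 0.46, 6.55 and 5.73 TPM in the DMSO libraries and 54.6, 40.1 and 40.1 TPM in the JQ1 libraries (log2 change 3.44, SE 0.49, adjusted p = 0.000262). On the list of the unfolded protein and integrated stress response 9 of 27 members rose and 8 fell (median log2 change −0.13). This made 63% called, against 33.9% of all genes. Ddit3, which encodes the stress factor CHOP, had 27.3, 24.9 and 21.1 TPM in the DMSO libraries and 214, 186 and 165 TPM in the JQ1 libraries, a 7.71-fold rise (log2 change 2.90, adjusted p = 1.03e-07). Chac1, a glutathione-degrading enzyme downstream of ATF4, rose from 4.1 ± 2.26 TPM to 38.2 ± 5.25 TPM (log2 change of 3.05, with adjusted p = 1.51e-05). Atf4 itself rose from 257 ± 8.84 TPM to 371 ± 21.5 TPM (log2 change of 0.53, with adjusted p = 6.14e-05). The phosphatase regulator Ppp1r15a rose from 52.4 ± 15 TPM to 124 ± 8.32 TPM (log2 change of 1.27, with adjusted p = 0.000257). The endoplasmic reticulum chaperones Hsp90b1 (413 ± 7.61 TPM to 278 ± 11.5 TPM), Pdia6 (175 ± 5.32 TPM to 102 ± 2.86 TPM) and Manf (167 ± 10.5 TPM to 111 ± 2.67 TPM) fell, and Hspa5 rose by little (1202 ± 20.8 TPM to 1324 ± 19.6 TPM, log2 change 0.14, adjusted p = 0.0241). The ATF4-linked genes Asns (33.8 ± 6.3 and 33.2 ± 0.825 TPM) and Trib3 (7.45 ± 1.77 and 5.81 ± 2.59 TPM) did not pass. The serine synthesis genes Psat1 (146 ± 15.6 TPM to 95 ± 4.22 TPM) and Phgdh (41.1 ± 4.49 TPM to 27.1 ± 4.41 TPM) fell.

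**Figure D3:**
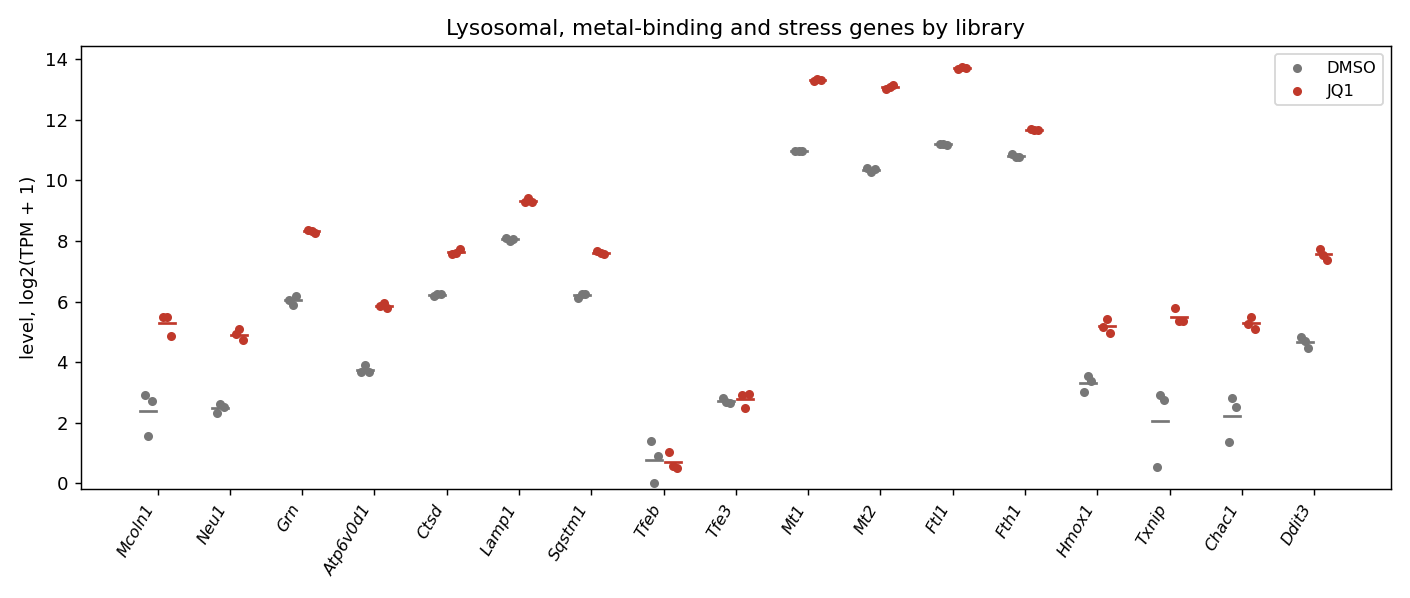
Level as log2(TPM + 1) of lysosomal, metal-binding and stress genes in each DMSO (grey) and JQ1 (red) library, with the mean of 3 libraries as a bar. JQ1 libraries lie above DMSO libraries for every gene drawn except Tfeb and Tfe3, whose groups overlap.

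Transcription factors and immediate early genes included some of the largest rises. Of 29 tested members of that list, 14 rose and 6 fell (69% called, against 33.9% of all genes), with a median log2 change of 0.32. Klf2, a Krüppel-like factor known for its induction by shear stress in endothelium, had 10.9, 10.6 and 10.04 TPM in the DMSO libraries and 152, 146 and 149.9 TPM in the JQ1 libraries. The spread within each group was small beside the 14.2-fold ratio (log2 change 3.71, SE 0.12, adjusted p = 3.17e-09). Junb (28 ± 2.07 TPM to 109 ± 3.05 TPM) and Jund (82.8 ± 2.59 TPM to 292 ± 21.7 TPM) rose, while Jun stood at 72.6 ± 1.95 and 64.9 ± 6.43 TPM (adjusted p = 0.186). The zinc-finger factor Egr1 (31.7 ± 5.08 TPM to 112 ± 8.13 TPM), Atf3 (8.29 ± 1.84 TPM to 40.01 ± 5.85 TPM) and the MAP kinase phosphatase Dusp1 (22 ± 2.5 TPM to 88.9 ± 6.68 TPM) rose, whereas Dusp6 (52.8 ± 5.88 TPM to 26.8 ± 2.57 TPM), Batf3 (4.46 ± 1.62 TPM to 0.237 ± 0.41 TPM) and Srf (6.26 ± 1.18 TPM to 2.47 ± 1.26 TPM) fell.

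The ID proteins, which lack a DNA-binding region and keep other helix-loop-helix factors from DNA, rose together. Id1 had 71.1, 64.8 and 69.2 TPM in the DMSO libraries and 448, 455 and 422 TPM in the JQ1 libraries, Id2 had 13.8, 8.07 and 10.5 TPM in the DMSO libraries and 96.8, 101 and 119 TPM in the JQ1 libraries and Id3 had 53.9, 43.2 and 58.7 TPM in the DMSO libraries and 393, 416 and 384 TPM in the JQ1 libraries. The log2 changes were 2.67, 3.20 and 2.92 (adjusted p = 3.19e-09, 3.49e-07 and 6.74e-08). Id1 did not overlap between groups, and Id2 and Id3 were picked by a rule that took only genes without overlap. Of the 22 tested genes of the TGF-beta, BMP and ID list 6 rose and 5 fell, with a median log2 change of 0.22. This made 50% called, against 33.9% of all genes. Grem1, a secreted BMP antagonist on that list, had 115, 111 and 116 TPM in the DMSO libraries and 4.6, 7.06 and 7.04 TPM in the JQ1 libraries (log2 change −4.01, SE 0.12, adjusted p = 2.33e-09). Follistatin (Fst), which binds activin, fell from 30.01 ± 2.08 TPM to 2.35 ± 1.92 TPM (log2 change of −3.37, with adjusted p = 1.16e-05). The activin subunit Inhba fell from 42.1 ± 5.06 TPM to 16 ± 0.561 TPM (log2 change of −1.34, with adjusted p = 3.35e-06). The latent TGF-beta binding protein Ltbp1 fell from 58.9 ± 4.73 TPM to 12 ± 2.35 TPM (log2 change of −2.22, with adjusted p = 4.2e-07). The receptor genes Tgfbr1, Tgfbr2, Bmpr1a and Bmpr2 did not pass, with log2 changes of 0.06, 0.19, −0.05 and 0.04.

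On the list of YAP and TEAD targets 7 of 14 rose and 2 fell (64.3% called, against 33.9% of all genes), with a median log2 change of 0.62. The matricellular genes Ccn1 (41.9 ± 2.78 TPM to 231 ± 9.48 TPM) and Ccn2 (106 ± 13.5 TPM to 242 ± 28.5 TPM) and the junction-associated gene Amotl2 (10.2 ± 1.8 TPM to 48.4 ± 4.42 TPM) rose, and Ankrd1 (60.6 ± 7.07 TPM to 46.8 ± 3.45 TPM) and F3, tissue factor (11.6 ± 1.77 TPM to 6.26 ± 1.58 TPM), fell. Quantile normalization, median-of-ratios scaling and multiplication by gene length each left 1 lower member in place of 2.

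Il1rl1, the receptor ST2 for interleukin-33, had 191, 169 and 199 TPM in the DMSO libraries and 1.91, 8.76 and 0.98 TPM in the JQ1 libraries. It fell 48.1-fold (log2 change −5.61, SE 0.43, adjusted p = 2.39e-06), with JQ1 replicate 2 above the other two. The chemokine Cxcl5 had 28.7, 33.8 and 29 TPM in the DMSO libraries and 0.61, 0.82 and 0.83 TPM in the JQ1 libraries (log2 change −4.17, adjusted p = 2.03e-09), and Cxcl1 fell from 13.1 ± 1.14 TPM to 2.86 ± 1.4 TPM (log2 change of −1.95, with adjusted p = 0.000261). The adhesion receptor Vcam1 fell from 8.55 ± 0.711 TPM to 0.993 ± 0.506 TPM (log2 change of −2.29, with adjusted p = 7.89e-06). Of all 22 tested genes on the NF-kB and inflammatory list 8 fell and 3 rose, with a median log2 change of −0.23, where 21.0% of all genes were lower and 12.9% higher. The WNT antagonist Dkk2 had 79.9, 81.4 and 81.2 TPM in the DMSO libraries and 7.17, 5.28 and 4.81 TPM in the JQ1 libraries (log2 change −3.61, adjusted p = 3.17e-09).

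Among 16 tested angiogenic ligands and receptors 9 fell and 1 rose (62.5% called, against 33.9% of all genes), with a median log2 change of −0.68. Adrenomedullin (Adm) fell from 23.1 ± 4.79 TPM to 2.15 ± 2.43 TPM (log2 change of −3.18, with adjusted p = 0.000107). Apelin (Apln) fell from 8.72 ± 0.716 TPM to 1.0 ± 0.218 TPM (log2 change of −2.28, with adjusted p = 2.06e-06). Hepatocyte growth factor (Hgf) fell from 6.71 ± 1.67 TPM to 0.667 ± 0.464 TPM (log2 change of −2.23, with adjusted p = 0.000108). The lymphangiogenic ligand Vegfd fell from 8.3 ± 0.53 TPM to 0.657 ± 0.349 TPM (log2 change of −2.51, with adjusted p = 4.94e-06). Vegfb fell from 43.6 ± 1.42 TPM to 17.5 ± 3.81 TPM (log2 change of −1.29, with adjusted p = 3.13e-05), but Vegfa had 29.5, 17.9 and 30.5 TPM in the DMSO libraries and 32.8, 26.9 and 21.8 TPM in the JQ1 libraries and overlapped (adjusted p = 0.801). The member that rose was Fgfr1 (21.2 ± 2.65 TPM to 30.8 ± 3.34 TPM). With the other scalings 8 members fell and 1 rose.

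Other large falls concerned proteins of varied roles. Crabp1, which binds retinoic acid in the cytosol, had 135, 131 and 128 TPM in the DMSO libraries and 3.73, 7.09 and 6.0 TPM in the JQ1 libraries (log2 change −4.36, SE 0.17, adjusted p = 9.53e-09). The cGMP-dependent kinase gene Prkg2 had 230.3, 227 and 205 TPM in the DMSO libraries and 16.6, 10.2 and 12.8 TPM in the JQ1 libraries (log2 change −3.99, adjusted p = 3.17e-09). Hmga2, an architectural chromatin protein of embryonic and tumour cells, had 143, 139 and 139 TPM in the DMSO libraries and 12.7, 12.6 and 9.25 TPM in the JQ1 libraries (log2 change −3.51, adjusted p = 3.36e-09). The rule that picked these 3 took only genes without overlap, as were 45.7% of all genes. The transporter Slc16a11 fell from 39.8 ± 8.55 TPM to 3.43 ± 2.75 TPM (log2 change of −3.36, with adjusted p = 3.96e-05). The phosphodiesterase gene Smpdl3b fell from 23.5 ± 0.516 TPM to 1.46 ± 0.723 TPM (log2 change of −3.35, with adjusted p = 2.08e-07).

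Extracellular matrix genes split. Of 27 collagens and collagen-processing genes 8 rose and 10 fell, and of 24 other matrix proteins 6 rose and 13 fell. These made 66.7% and 79.2% called, against 33.9% of all genes. Col3a1 (19.2 ± 0.232 TPM to 3.3 ± 0.598 TPM), Col6a2 (15.2 ± 0.476 TPM to 3.6 ± 0.876 TPM) and the cross-linking enzyme Loxl1 (42.5 ± 3.4 TPM to 10.3 ± 1.43 TPM) fell. Osteopontin (Spp1) had 309, 259.9 and 275 TPM in the DMSO libraries and 27.6, 30.9 and 39.5 TPM in the JQ1 libraries (log2 change −3.08, adjusted p = 6.3e-09), and matrix Gla protein (Mgp) fell from 1789 ± 17.4 TPM to 566 ± 17.4 TPM (log2 change of −1.66, with adjusted p = 1.86e-10). Periostin (Postn) had 2.62, 1.43 and 3.01 TPM in DMSO and was listed at 0 in all 3 JQ1 libraries (adjusted p = 0.000585). The metalloproteinase inhibitors diverged, with Timp2 (124 ± 6.08 TPM to 490.4 ± 31.3 TPM) and Timp3 (28 ± 5.06 TPM to 88 ± 3.89 TPM) higher and Timp1 (96.1 ± 6.0 TPM to 26.7 ± 3.94 TPM) lower. Of 20 contractile and mesenchymal genes (80% called) 5 rose, such as vinculin (Vcl, 8.83 ± 1.93 TPM to 27.2 ± 1.21 TPM). The other 11 that passed fell, such as smooth muscle actin (Acta2, 51.7 ± 7.0 TPM to 22.3 ± 3.67 TPM). The summed markers of fibroblasts and of pericytes and smooth muscle, given above, were also lower without overlap. Those sums hold Col3a1 and Acta2 themselves, so they are not separate values, and their part in these results was not tested.

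**Figure D4:**
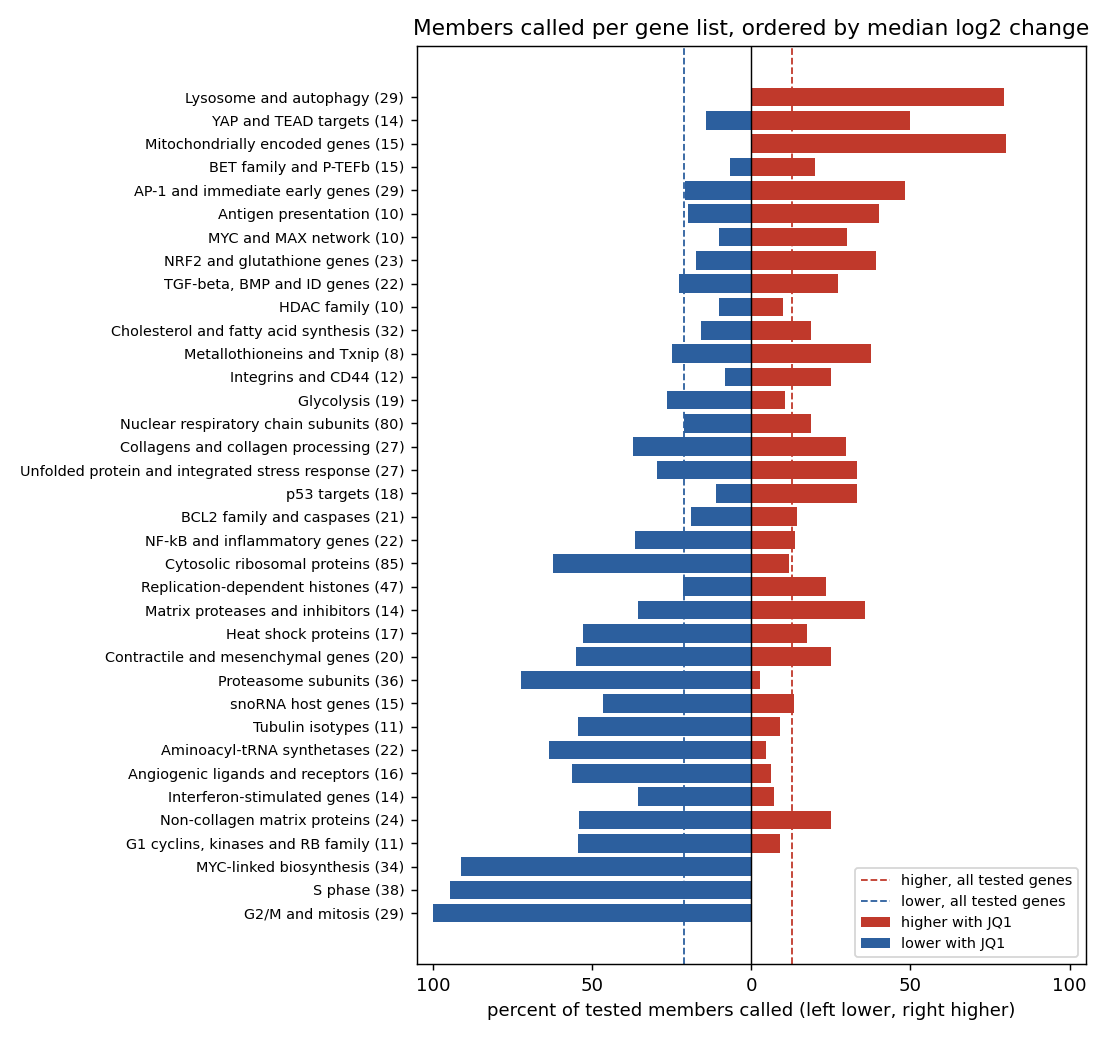
Percent of the tested members of each gene list that were lower (blue, to the left) or higher (red, to the right) with JQ1, for lists with at least 8 tested members, ordered by median log2 change, with the number tested in brackets. Dashed lines mark the shares over all tested genes (21.0% lower and 12.9% higher); the G2/M, S-phase and MYC-linked lists lie at the bottom and the lysosome list at the top.

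Genes of protein synthesis and turnover were mostly lower by small amounts, as were many abundant genes. Of all genes with a mean above 100 TPM, 48.7% were lower and 19.9% higher, with a median log2 change of −0.23. For cytosolic ribosomal proteins, 53 of the 85 tested genes fell and 10 rose (74.1% called, against 33.9% of all genes). Their median log2 change was −0.25, and the lower count ranged from 42 to 50 under the 4 other scalings. Rpl27 fell from 4790.5 ± 56.3 TPM to 2944 ± 74.6 TPM (log2 change of −0.70, with adjusted p = 9.53e-09). Rplp1 rose from 12472 ± 32.6 TPM to 14191 ± 149.5 TPM (log2 change of 0.19, with adjusted p = 0.000693). Of 36 proteasome genes 26 fell and 1 rose (75% called, median −0.45, with 15 lower and 3 higher after quantile normalization). The one far outside that range was the immunoproteasome subunit Psmb10, with 106, 128 and 104 TPM in the DMSO libraries and 6.48, 4.61 and 8.88 TPM in the JQ1 libraries (log2 change −3.92, adjusted p = 2.86e-07). The peptide transporter subunit Tap2 fell from 3.5 ± 0.416 TPM to 0.823 ± 0.277 TPM (log2 change of −1.31, with adjusted p = 0.000409), while the class I genes H2-K1 (53 ± 12.7 TPM to 158 ± 6.87 TPM) and H2-D1 (12.7 ± 3.4 TPM to 54.9 ± 3.22 TPM), whose close copies can share reads, and B2m (138 ± 9.14 TPM to 217 ± 0.418 TPM) rose. Of 14 interferon-stimulated genes 5 fell and 1 rose (42.9% called), with Ifitm3 (354 ± 4.27 TPM to 94.7 ± 4.24 TPM) and Isg15 (22.6 ± 5.82 TPM to 5.83 ± 2.83 TPM) among the lower. Of 22 aminoacyl-tRNA synthetases 14 fell and 1 rose (68.2% called), led by Mars1 (175 ± 24.1 TPM to 53.6 ± 2.24 TPM) and Vars (191 ± 22.7 TPM to 71.3 ± 5.77 TPM).

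Mitochondrially encoded transcripts rose while their nuclear partners did not move together. Of 15 mitochondrial genes 12 rose and none fell (80% called), with a median log2 change of 0.61, and quantile normalization left 6 higher and none lower. The cytochrome oxidase subunit mt-Co1 had 1249.6, 1268 and 1215 TPM in the DMSO libraries and 2001, 1986 and 1996 TPM in the JQ1 libraries (log2 change 0.68, adjusted p = 2.77e-07). Of 80 nuclear respiratory chain genes 15 rose and 17 fell (40% called, against 33.9% of all genes). Their median of −0.11 was near the −0.07 of all genes. Quantile normalization turned the balance to 26 higher and 11 lower.

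The nuclear long noncoding RNA Malat1 rose from 694 ± 32 to 7479 ± 193 TPM, with 713, 713 and 657 TPM in the DMSO libraries and 7355, 7381 and 7702 TPM in the JQ1 libraries (log2 change 3.43, SE 0.05, adjusted p = 8.19e-12). Replication-dependent histone genes, whose messages mostly lack a poly(A) tail, moved in both directions, with 11 higher and 10 lower of 47. This made 44.7% called, against 33.9% of all genes. H2bc4 (9.55 ± 3.27 TPM to 132 ± 10.1 TPM), H4c8 (1.36 ± 2.36 TPM to 34.1 ± 10.1 TPM) and H3c15 (1.44 ± 0.354 TPM to 20.3 ± 1.83 TPM) rose, and H2ac24 fell from 3014 ± 80.01 TPM to 506 ± 15.5 TPM (log2 change −2.57, adjusted p = 7.27e-09). The linker histones H1f4 (116 ± 12 TPM to 23.4 ± 6.64 TPM) and H1f5 (67.4 ± 8.17 TPM to 11.5 ± 0.563 TPM) fell and H1f2 (19.5 ± 1.32 TPM to 82.8 ± 8.29 TPM) rose. Copies of the core histone genes are nearly identical and reads can be split among them, so single members are uncertain.

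VPA was given for the same 36 h as JQ1, so the contrast of JQ1 with VPA tests where the responses differed. In that contrast 1319 genes were higher with JQ1 (10.3%) and 2945 lower (22.9%), with a median log2 difference of −0.14 over all genes; quantile normalization gave 2005 higher. Of the G2/M list 28 of 29 members were lower with JQ1 than with VPA, of the S-phase list 35 of 38 and of the MYC-linked list 29 of 34, and of the lysosome list 19 of 29 were higher and 1 lower. Follistatin (Fst) had 147, 114 and 113 TPM in the VPA libraries, on the far side of DMSO from JQ1 (JQ1 minus VPA −5.38, adjusted p = 3.77e-07). Gap43, a growth-associated protein of neurons, had 119, 133 and 114 TPM in the VPA libraries, against 28.8, 22 and 26.9 TPM in the DMSO libraries and 1.21, 4.02 and 3.24 TPM in the JQ1 libraries (JQ1 minus VPA −5.08, adjusted p = 7.22e-08). Cdkn1a had 55.9, 48.4 and 51.1 TPM in the VPA libraries (JQ1 minus VPA −1.58, adjusted p = 1.12e-05). Grem1 had 202, 191 and 198 TPM in the VPA libraries and Spp1 had 472, 427 and 472 TPM in the VPA libraries, each above its DMSO libraries (JQ1 minus VPA −4.80 and −3.78, adjusted p = 6.94e-10 and 1.95e-09).

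For other genes the VPA libraries lay nearer to the vehicle than to JQ1. Klf2 had 15.6, 16.4 and 15 TPM in the VPA libraries, Il1rl1 had 173, 172 and 180.2 TPM in the VPA libraries and Malat1 had 739, 678 and 759 TPM in the VPA libraries (JQ1 minus VPA 3.17, −5.52 and 3.37, adjusted p = 1.15e-08, 2.75e-06 and 1e-11). Brd2 had 557, 565 and 562 TPM in the VPA libraries and Hexim1 had 11.7, 12.1 and 10.2 TPM in the VPA libraries (JQ1 minus VPA 2.04 and 1.88, adjusted p = 4.96e-10 and 6.54e-06). Krt19 was raised in both sets of libraries, with 35.1, 24.1 and 33.8 TPM in the VPA libraries and 10.8, 12 and 11.2 TPM in the DMSO libraries and 30.4, 40.3 and 32 TPM in the JQ1 libraries, and the difference between the drugs did not pass (JQ1 minus VPA 0.14, adjusted p = 0.531). Npm1 was nearly as low with VPA as with JQ1: it had 1692, 1612 and 1729 TPM in the VPA libraries (JQ1 minus VPA −0.15, adjusted p = 0.0231). Both contrasts of JQ1 use the same JQ1 libraries.

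**Figure D5:**
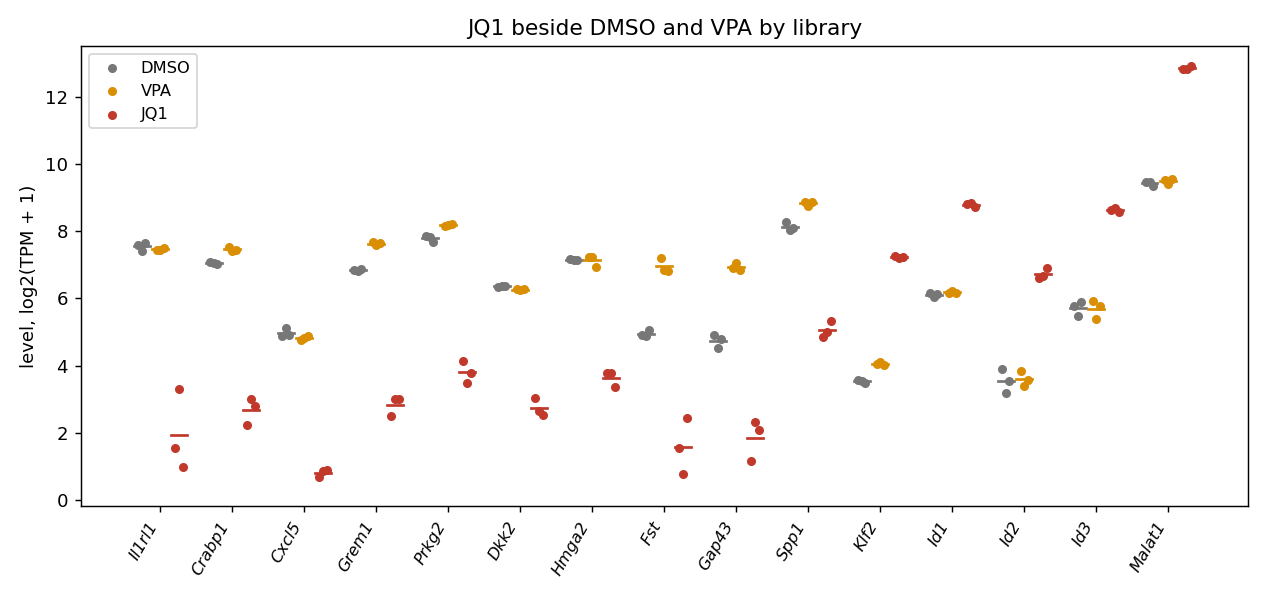
Level as log2(TPM + 1) of genes with large changes in each DMSO (grey), VPA (amber) and JQ1 (red) library, with the mean of 3 libraries as a bar. VPA libraries lie close to DMSO for Il1rl1, Cxcl5, Dkk2, Hmga2, the Id genes and Malat1, and above DMSO for Fst, Gap43, Grem1 and Spp1, where JQ1 libraries lie below it.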

How the data were processed

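RNA from ISOS-1 cells was sequenced with a 3′ tag kit (QuantSeq 3′ FWD), per the labels' protocols. The authors deposited 1 matrix of TPM per gene and library, while RSEM, STAR, edgeR, bcl2fastq 2.17 and the mm39 build are listed, without roles, per the submitters' processing notes. Use of strand is not given in the sources used here. A second deposited table of JQ1 and DMSO values equalled the matrix at all 332154 values.

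TPM were taken as log2(TPM + 1), and a gene was kept where 3 or more of the 12 libraries reached 1 TPM. limma 3.58.1 (R 4.3.3; means of 4 groups, all 12 libraries, 8 residual degrees of freedom, trended empirical Bayes) gave differences, with Benjamini-Hochberg adjustment over 12836 genes. The procedure was tested on simulated data with few changed genes, balanced directions and no fixed sum per library. That simulation cannot show how scaling affects the calls in these data. Symbols came from the matrix (10925 genes) or GENCODE M21 (1855). Library summaries used exact permutation tests, and Python 3.11.15 and matplotlib 3.10.9 drew the plots. Promoters came from RefSeq, GRCm38.p6, whose gene positions were not set against the files.

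Members and lists were chosen with earlier results of these data known. Named genes were the 15 higher and 15 lower with the largest log2 change (mean of at least 5 TPM in a group, no overlap, no predicted or clone-based symbol), the 5 and 5 with the largest difference in TPM, up to 4 called members a list, and a few set genes. Other members, the promoters shown and the motifs CCAAT and TTTGAA were picked after their values were seen. Replicate numbers were checked for pairing: deviations of same-numbered JQ1 and DMSO libraries correlated at 0.00419, 0.0295 and −0.00229, so the numbers were not treated as pairs. Results for a few genes are not reported here.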

Additional observations from a re-analysis of the deposited data

How the results depend on the processing

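With the replicate number as a block, 1572 genes were higher and 2606 lower with JQ1 than DMSO, and no named gene changed its call; the block had no basis in the pairing check. Leaving out 1 library gave 1297 to 1667 higher and 2321 to 2695 lower genes, and for JQ1 against VPA 1059 to 1330 higher and 2597 to 2939 lower. Scaling moved the balance of calls most: multiplication by gene length gave 1991 higher and 2464 lower, and removal of mitochondrial genes and Rn18s 1828 and 2478. The median change over all genes was 0.01 after median-of-ratios scaling and 0.02 after quantile normalization. For JQ1 against VPA, quantile normalization gave 2005 higher genes in place of 1319. Without a filter 3890 genes passed, of which 3742 also passed with it.

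Of the named genes, 13 lost their call at least once. The small log2 difference of Brd3 turned to 0.0154 (median-of-ratios scaling) and 0.0425 (quantile normalization) and ran from −0.276 to 0.0201 as single libraries were left out. That of Myc turned to 0.0548, 0.0611, 0.00226 (without mitochondrial genes and Rn18s) and 0.0170 (times gene length) and ran from −0.116 to 0.00291. Neither passed the test in any of these. Among promoters of genes changed at least 2-fold, CACGTG was in 9.54% and CCGGAA in 26.2% of lower genes (10.9% and 31.0% of all lower genes), CCAAT in 44.9% of higher genes (41.5%) and TTTGAA in 18.4% of lower genes (15.2%); the causes were not tested. TPM keeps no depth, so the counting error of low values cannot be given.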

Other observations

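Among heat shock proteins, which fold other proteins, 9 of 17 tested genes were lower with JQ1 and 3 higher (70.6% called). The small chaperone gene Cryab rose from 30.2 ± 3.79 TPM to 125 ± 26.1 TPM (log2 change of 2.00, with adjusted p = 0.000131). Of 11 tubulin genes 6 were lower and 1 higher (63.6% called). Of 21 genes of the BCL2 family and caspases 3 were higher and 4 lower, or 33.3% called, near the 33.9% of all genes. Among them Bcl2l11, which encodes the pro-apoptotic protein BIM, rose from 8.33 ± 0.987 TPM to 18.8 ± 0.925 TPM (log2 change of 1.09, with adjusted p = 0.000242). Genes of cholesterol and fatty acid synthesis (6 higher and 5 lower of 32, 34.4% called) and of glycolysis (2 higher and 5 lower of 19, 36.8% called) were also near that share. Quantile normalization turned these splits to 8 higher and 3 lower, and to 5 higher and 3 lower. Of 15 small nucleolar RNA host genes 7 were lower and 2 higher (60% called).

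The share of genes past the threshold grew with level. Of 1048 genes with a mean above 100 TPM, 19.9% were higher and 48.7% lower with JQ1, against 7.29% and 9.19% of 5212 genes with a mean under 5 TPM. By gene class, 24 of 188 genes annotated as to be experimentally tested (TEC) were higher (12.8%, against 12.9% of all genes) and 4 lower (2.13%, against 21.0%). Of 842 processed pseudogenes 16 were higher and 69 lower (1.90% and 8.19%). The counts were 35 and 22 of 315 for antisense genes, whose reads cannot be told from those of their partners if strand was not used.

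Some genes were listed at 0 throughout the DMSO or the JQ1 libraries. Of the 12836 tested genes, 31 were listed at 0 in every DMSO library and at 1 TPM or more in every JQ1 library. The reverse held for 48. Of these 31 and 48 genes, 4 and 20 had their own symbol. Tmsb15l, Tnnc2 and Styxl1, among the 31, had 1.15 to 4.25 TPM in the JQ1 libraries. Tmsb15l also had 6.62 TPM in 1 VPA library and 0 in the others. The proprotein convertase gene Pcsk4, among the 48, had 5.71 to 8.19 TPM in the DMSO libraries. TPM keeps no depth, so a 0 beside such low levels does not show that the transcript was absent. The unprocessed pseudogene Gm29216 on chromosome 1, which the rule for named genes leaves out and which was picked after its values were seen, was listed at 0 in all DMSO and VPA libraries and at 993, 1040.2 and 1312 TPM in the JQ1 libraries. Gm29216 had 7.16 TPM in 1 SAHA library and 0 in the other two. Near-identical copies may share reads with Gm29216, so the source of these tags is uncertain.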
